A study of Homo sapiens with 9 samples.

Results

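ES-2, a line from a human ovarian cancer, was profiled by RNA sequencing in 9 libraries, and the labels number the libraries of each of the 3 groups 1, 2 and 3. The libraries numbered 2 are described here against numbers 1 and 3 of the same group, which makes 3 of 9 libraries. The groups were cells with an empty vector, cells overexpressing OTUB2, a deubiquitinating enzyme, and cells overexpressing SNX29P2, which the annotation lists as a noncoding processed transcript. All cells grew in RPMI-1640 with fetal bovine serum, none received a drug, and RNA was extracted with TRIzol. The labels do not say what a number stands for, whether the libraries came from separate cultures, or whether the lines are clones, so any p-value here speaks only of how far these libraries spread, and that spread may be technical.

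The split was picked after the data were seen, and the genes below were chosen on these same 9 values. Their differences are therefore a description, with no test. For each gene and group, the difference is log2(RPKM + 0.1) of library number 2 minus the mean of numbers 1 and 3, and it is given as the mean ± SD over the 3 groups (n = 3). RPKM is reads per kilobase of gene and 1000000 reads. A gene is called set apart when its number 2 library lay outside both other libraries of the group, on the same side in all 3 groups, and its mean difference was at least 0.5 in size. Of 16533 genes tested, 259 were set apart as higher, which is 1.57%, and 153 as lower, which is 0.925%. By order alone, number 2 was the highest library in all 3 groups for 2345 genes (14.2%) and the lowest for 1724 (10.4%). Nothing is read from these shares, because the rule used the same contrast. The genes just inside the size limit were FGF2 at 0.504 and SYNE1-AS1 at -0.503, and those just outside were OXTR at 0.4998 and TTC28-AS1_2 at -0.495.

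The genes set apart belong in part to a few known circuits. Serum and contractile tension act through the immediate early genes and serum response factor, whose DNA site is called the CArG box. Scarce amino acids, and other stress on translation, act through the transcription factor ATF4, which switches on transporters and enzymes of amino acid supply. Activin and TGF-beta are secreted ligands that signal through SMAD proteins to matrix, protease inhibitor and feedback genes, and ovarian cancer cells are known to make activin A. IL-11, a cytokine of the interleukin-6 family, is a known target of both AP-1 and TGF-beta.

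Promoter sequences are shown for 5 of the genes higher in number 2, picked because they hold letter matches to motifs of these circuits. Sequences come from RefSeq (GRCh38.p14), run 5′ to 3′ on the gene's strand, and carry in capitals the bases that matched the motif searched on both strands. The first 3 are the 250 bases before the RefSeq start. The last 2 are 30 bases around the match. In EGR1 (chr5:138465229-138465478, plus strand) and FSTL3 (chr19:676142-676391, plus strand) the capitals mark CArG boxes. In IL11 (chr19:55370464-55370713, minus strand) they mark an AP-1 site (TGACTCA on either strand). In CHAC1 (chr15:40953251-40953280, plus strand) and ASNS (chr7:97872458-97872487, minus strand) they mark TGATGNAA, the core of the element that ATF4 binds, a motif added after the values were seen. Both of those matches lie inside the gene as deposited.
EGR1: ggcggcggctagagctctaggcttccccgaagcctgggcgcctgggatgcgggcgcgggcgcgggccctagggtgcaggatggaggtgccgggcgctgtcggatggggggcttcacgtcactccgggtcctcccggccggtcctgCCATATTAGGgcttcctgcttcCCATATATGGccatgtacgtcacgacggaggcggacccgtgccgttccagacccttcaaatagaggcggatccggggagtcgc
FSTL3: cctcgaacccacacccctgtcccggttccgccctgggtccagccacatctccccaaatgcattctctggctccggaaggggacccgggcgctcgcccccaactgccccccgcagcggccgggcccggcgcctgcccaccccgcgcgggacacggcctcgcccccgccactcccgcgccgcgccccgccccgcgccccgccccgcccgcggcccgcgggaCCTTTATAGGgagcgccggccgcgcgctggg
IL11: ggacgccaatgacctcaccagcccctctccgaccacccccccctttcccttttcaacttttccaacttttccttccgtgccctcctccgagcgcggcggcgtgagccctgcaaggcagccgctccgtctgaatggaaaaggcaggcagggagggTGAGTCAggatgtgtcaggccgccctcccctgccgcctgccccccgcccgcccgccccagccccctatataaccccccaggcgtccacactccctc
CHAC1: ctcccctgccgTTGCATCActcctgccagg
ASNS: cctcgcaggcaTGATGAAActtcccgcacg

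RefSeq promoters of 300 bases, 250 before and 50 after the start, matched 9437 of the genes tested, 87 of those set apart as higher and 46 of those lower. A CArG box was found in 5 of the 87 (EGR1, FSTL3, PDGFA, GBP1 and ZP1), in 0 of the 46, and in 0.954% of all. The AP-1 letters TGACTCA were in 6 of the 87, IL11 among them, in 1 of the 46, and in 3.20% of all. TGATGNAA was in 5 of the 87, in 1 of the 46, and in 1.81% of all. The letters GGAATG, bound by TEAD factors, were in 8 of the 87, in 7 of the 46, and in 10.8% of all, and the CRE letters TGACGTCA in 2, in 2, and in 3.36%. The E-box CACGTG was in 10 of the 87, in 2 of the 46, and in 10.4%, and the heat shock element in 1, in 0, and in 0.339%. These are letter matches and say nothing of binding.

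The libraries held 38504854 to 48551215 reads in genes, and those numbered 2 held both the fewest, with the vector, and the most, with OTUB2. Mitochondrial transcripts took 4.45 to 5.23% of reads over all libraries, and 5.10, 4.64 and 4.96% in number 2 of vector, OTUB2 and SNX29P2. OTUB2 stood at 37.6, 42.6 and 38.4 RPKM in libraries 1, 2 and 3 of its own group, against 1.04 to 1.58 elsewhere. SNX29P2 stood at 41.0, 55.1 and 47.6 RPKM in its own group and at most at 0.0665 elsewhere. The overexpressed genes therefore match the labels in all 9 libraries. Of the epithelial markers, KRT7, KRT8 and KRT18 passed the filter, while EPCAM, KRT19 and MUC1 did not. Of the ovarian and Müllerian markers, PAX8 and MSLN did not pass, and of the leukocyte markers only CD68 did. VIM, a mesenchymal marker, stood at 1017 to 1142 RPKM in number 2 and 975 to 1145 in the others.

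The 5 genes named for this split, chosen with its results known, give its pattern first. In all RPKM values that follow, number 2 is given in the order vector, OTUB2, SNX29P2, and numbers 1 and 3 as pairs in that order. RHOB, a small endosomal GTPase whose gene answers quickly to serum and stress (chr2:20447074-20449445, GRCh38), was at 29.04, 25.01 and 25.4 RPKM in number 2 and at 16.1 and 19.3, 17.1 and 15.6, and 15.3 and 15.5 in numbers 1 and 3. All 3 libraries numbered 2 lay above the other 6, and the difference was 0.68 ± 0.062, or 1.60-fold.

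RBM14, an RNA-binding coactivator needed for paraspeckles, nuclear bodies built on a long noncoding RNA (chr11:66616582-66627347), was at 62.8, 59.3 and 54.9 RPKM against 34.7 and 34.4, 36.5 and 28.6, and 37.2 and 27.7. The difference was 0.84 ± 0.056, and the groups of libraries did not overlap. The read-through gene RBM14-RBM4 covers RBM14, so reads there may be split between them. RBM14-RBM4 differed by 0.45 ± 0.073, and RBM4 by 0.30 ± 0.058, with number 2 above in every group.

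SDC4, a heparan sulfate proteoglycan of focal adhesions (chr20:45325288-45348424), was at 31.2, 27.2 and 24.9 RPKM against 17.3 and 19.7, 17.9 and 18.2, and 17.6 and 17.4, a difference of 0.62 ± 0.13. INHBA, which encodes the chain of activin A (chr7:41667168-41705834), was at 28.5, 27.7 and 30.9 RPKM against 20.6 and 19.4, 20.4 and 18.4, and 20.4 and 22.4. Its difference of 0.51 ± 0.0095 had the smallest spread over groups of these 5 genes. An antisense gene overlaps INHBA, and strand handling is not given in the sources used here, so its reads cannot be told apart from those of INHBA.

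PREX1, an exchange factor that activates the GTPase Rac (chr20:48624252-48827883), went the other way, at 11.3, 16.3 and 14.1 RPKM against 25.2 and 21.4, 26.1 and 24.2, and 24.7 and 23.6. The difference was -0.80 ± 0.21, to 0.572 of the level in the others, and every library numbered 2 was below the other 6. SDC4 was the only set-apart member among 14 genes of syndecans, glypicans and heparan sulfate synthesis, with a median of 0.050.

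**Figure D1:**
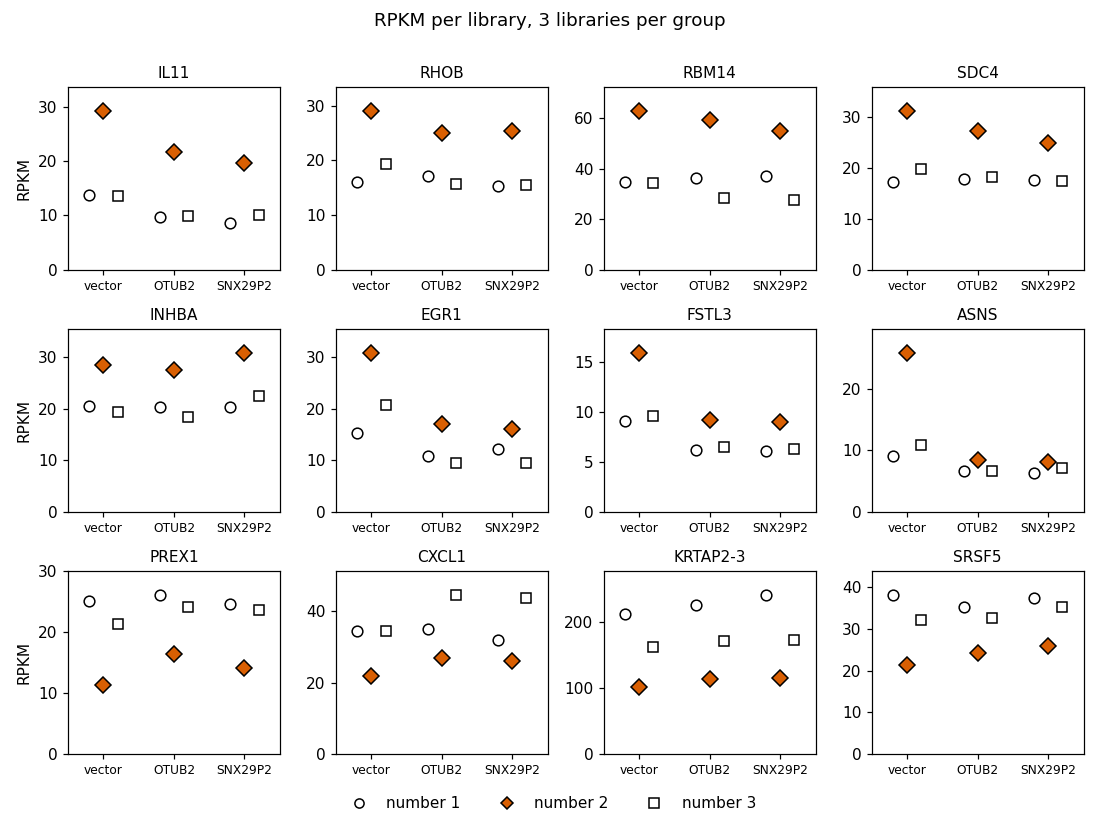
RPKM (y axes, starting at 0) in each of the 9 libraries for 12 genes, with groups along the x axes; orange diamonds are libraries numbered 2, open circles number 1 and open squares number 3. In each panel and group the diamond lies outside the other 2 symbols, above them in the first 8 genes and below in the last 4; for ASNS the vector diamond, at 25.9 RPKM, stands far above the rest.

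Part of the activin and TGF-beta list lay above in number 2 beside INHBA. Of 24 tested, number 2 was the highest library in all 3 groups for 10 and the lowest for 0, and 4 were set apart. Over all genes tested, 14.2% were highest and 10.4% lowest in this way, and 1.57% and 0.925% were set apart as higher and lower. These shares are the background for each list below. The median difference of the activin and TGF-beta list was 0.22, against 0.011 over all genes tested, and it was 0.37, 0.17 and 0.12 in vector, OTUB2 and SNX29P2. Without vector number 2 it was 0.13. FSTL3, a secreted protein that binds and blocks activin, was at 15.9, 9.17 and 9.02 RPKM against 9.11 and 9.57, 6.15 and 6.46, and 6.11 and 6.32, a difference of 0.61 ± 0.13. The libraries numbered 2 overlapped the others, since vector number 3 was above number 2 of OTUB2 and SNX29P2.

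SKIL, which encodes a SMAD co-repressor that TGF-beta induces, was at 4.08, 4.06 and 5.07 RPKM against 2.93 and 2.74, 2.75 and 2.98, and 2.73 and 3.77, or 0.55 ± 0.083. Every library numbered 2 was above the other 6. The type I receptor gene TGFBR1 differed by 0.47 ± 0.078 and TGFBI, a matrix protein named for its induction, by 0.45 ± 0.081. SMAD7, a feedback inhibitor, was not ordered in all groups: OTUB2 and SNX29P2 number 1, at 3.65 and 3.39 RPKM, were above number 2.

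IL11 had the widest difference of the protein-coding genes at a mean of 5 RPKM or more. It was at 29.2, 21.6 and 19.7 RPKM in number 2 and at 13.8 and 13.6, 9.70 and 9.94, and 8.54 and 10.1 in numbers 1 and 3 (chr19:55364389-55370463). The difference of 1.10 ± 0.029 was nearly equal in the 3 groups, and all 3 libraries numbered 2 were above the other 6. Of the inflammatory factors and NF-kB targets, 10 of 23 were highest in number 2 throughout (14.2% of all genes) and 1 lowest (10.4%). Of these 23, 5 were set apart as higher and 1 as lower (1.57% and 0.925% of all genes), and the median was 0.31. RELB, an NF-kB subunit, was at 5.01, 3.60 and 3.15 RPKM against 2.66 and 3.28, 2.10 and 2.51, and 2.05 and 2.19, or 0.64 ± 0.096. TNFAIP2, a gene that TNF induces, differed by 0.56 ± 0.11, BIRC3, an inhibitor of apoptosis, by 0.51 ± 0.36, and CSF1, a macrophage growth factor, by 0.56 ± 0.048.

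CXCL1, a neutrophil-attracting chemokine on the same list, was lower, at 21.9, 26.8 and 26.0 RPKM against 34.5 and 34.6, 35.2 and 44.6, and 31.9 and 43.8. The difference was -0.58 ± 0.069 without overlap, so that members of this list lay on both sides.

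Of 21 immediate early genes tested, 9 were highest in number 2 in all 3 groups (14.2% of all genes) and 2 lowest (10.4%). Of the 21, 3 were set apart, all higher, and 6 had a mean difference below 0. The median was 0.23, and 0.096 among the genes that passed a filter of 1 RPKM in 6 libraries. EGR1, a zinc finger factor with 2 CArG boxes in the sequence shown above, was at 30.8, 17.0 and 16.1 RPKM against 15.3 and 20.7, 10.7 and 9.45, and 12.1 and 9.49, a difference of 0.70 ± 0.11. Number 2 was the highest of each group, but vector number 3 was above number 2 of OTUB2 and SNX29P2. FOSB, a subunit of AP-1, was at 2.27, 1.86 and 1.78 RPKM against 1.21 and 0.963, 1.26 and 0.708, and 1.70 and 0.721, or 0.85 ± 0.19. ZFP36, which speeds the decay of cytokine mRNAs, was at 1.91, 1.97 and 1.92 RPKM against 0.956 and 0.939, 1.501 and 0.997, and 1.19 and 0.980, or 0.79 ± 0.15. Neither FOSB nor ZFP36 overlapped, although SNX29P2 number 1 had nearly the FOSB level of its number 2. JUNB differed by 0.49 ± 0.054 and JUN by 0.17 ± 0.023, both highest in number 2 in each group. FOS was not ordered in this way, at 1.52, 1.35 and 1.64 RPKM against 0.709 and 0.568, 1.53 and 0.650, and 1.49 and 0.694.

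None of the SRF targets and actin genes was set apart. Of 19 tested, 9 were highest in number 2 throughout (14.2% of all genes) and 2 lowest (10.4%). Of the 19, 4 had a mean difference below 0, and the group medians were 0.19, 0.15 and 0.19. SRF itself was at 28.4, 25.1 and 25.4 RPKM against 20.4 and 22.0, 19.8 and 20.3, and 20.7 and 18.2, or 0.38 ± 0.050, without overlap. The actin-binding proteins TPM1 and CALD1 differed by 0.45 ± 0.14 and 0.42 ± 0.041. YAP and TAZ targets, which also answer to tension and cell density, had 8 of 23 highest, 1 lowest and a median of 0.12, or 0.077 without vector number 3. Matrix and integrin genes had 11 of 23 highest, 1 lowest and a median of 0.13, with COL1A1 at 0.37 ± 0.025 and FN1 at 0.22 ± 0.038. The matrix proteases and urokinase system had a median of 0.12 over 15 genes, but group medians of 0.091, 0.011 and -0.0029 and -0.021 without vector number 2, with 2 set apart. Among them was TIMP3, an inhibitor of metalloproteases, at 30.7, 31.7 and 27.8 RPKM against 19.4 and 17.0, 19.2 and 22.0, and 15.3 and 17.8.

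Genes of the ATF4 response had the widest median of the lists. Number 2 was highest in all 3 groups for 16 of 23 (14.2% of all genes) and lowest for 1 (10.4%). Of the 23, 7 were set apart, and the median was 0.34. The group medians of 0.58, 0.19 and 0.20 show that vector number 2 was farthest from its group, and without that library the median was 0.21. ASNS, asparagine synthetase, was at 25.9, 8.51 and 8.10 RPKM against 9.11 and 10.8, 6.69 and 6.65, and 6.25 and 7.09, and its differences were 1.37, 0.35 and 0.28. The vector library stood far above its neighbours, and those of OTUB2 and SNX29P2 only slightly.

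SLC7A5, the light chain of a transporter for large amino acids, was at 87.6, 67.4 and 69.7 RPKM against 33.6 and 50.3, 55.8 and 47.8, and 55.1 and 45.6, or 0.65 ± 0.38, with no overlap. DDIT4, an inhibitor of mTORC1 signalling, was at 5.80, 3.51 and 2.70 RPKM against 3.96 and 2.35, 1.47 and 1.48, and 1.61 and 1.46, or 0.96 ± 0.22. CHAC1, which degrades glutathione, was at 2.08, 1.35 and 1.33 RPKM against 1.47 and 1.06, 0.870 and 0.730, and 0.859 and 0.638, and its difference of 0.72 ± 0.039 was nearly the same in each group. Both overlapped, as vector number 1 was above number 2 of the overexpressing groups. SESN2, an amino acid sensor protein, differed by 0.52 ± 0.14, and ALDH1L2, a mitochondrial folate enzyme, by 0.76 ± 0.56. The serine synthesis gene PSAT1 differed by 0.42 ± 0.37, while PSPH of the same route was lower, at -0.15 ± 0.12. The mRNA of ATF4 itself differed by -0.00084 ± 0.043, and DDIT3, another factor of the response, was at 12.8, 10.9 and 13.8 RPKM against 10.3 and 9.29, 21.0 and 8.86, and 19.3 and 10.5, highest in number 1 of OTUB2 and SNX29P2.

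The neighbouring stress programmes did not share one direction. Unfolded protein response genes had medians of 0.27, -0.078 and -0.082 in vector, OTUB2 and SNX29P2, with 2 of 18 highest in number 2 throughout. Heat shock genes had medians of 0.028, -0.21 and -0.18, with 5 of 17 lowest and 1 highest. In their mean level relative to all libraries, number 1 stood apart, at -0.47, 0.38 and 0.38 in vector, OTUB2 and SNX29P2. Number 2 stood at -0.12, -0.043 and -0.0014, and number 3 at -0.18, -0.020 and 0.077. Unfolded protein response genes were also highest in number 1 of OTUB2 and SNX29P2, at 0.24 and 0.29. The heat shock median of -0.10 was -0.25 without vector number 2, -0.052 without vector number 3 and -0.16 without OTUB2 number 3. The lowest included HSP90AA1 at -0.26 ± 0.024 and the chaperonin gene HSPE1 at -0.28 ± 0.017, and the highest was HSPA8, the constitutive HSP70, at 0.42 ± 0.22. NRF2 targets had a median of -0.068 over 18 genes and p53 targets one of 0.15 over 20.

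**Figure D2:**
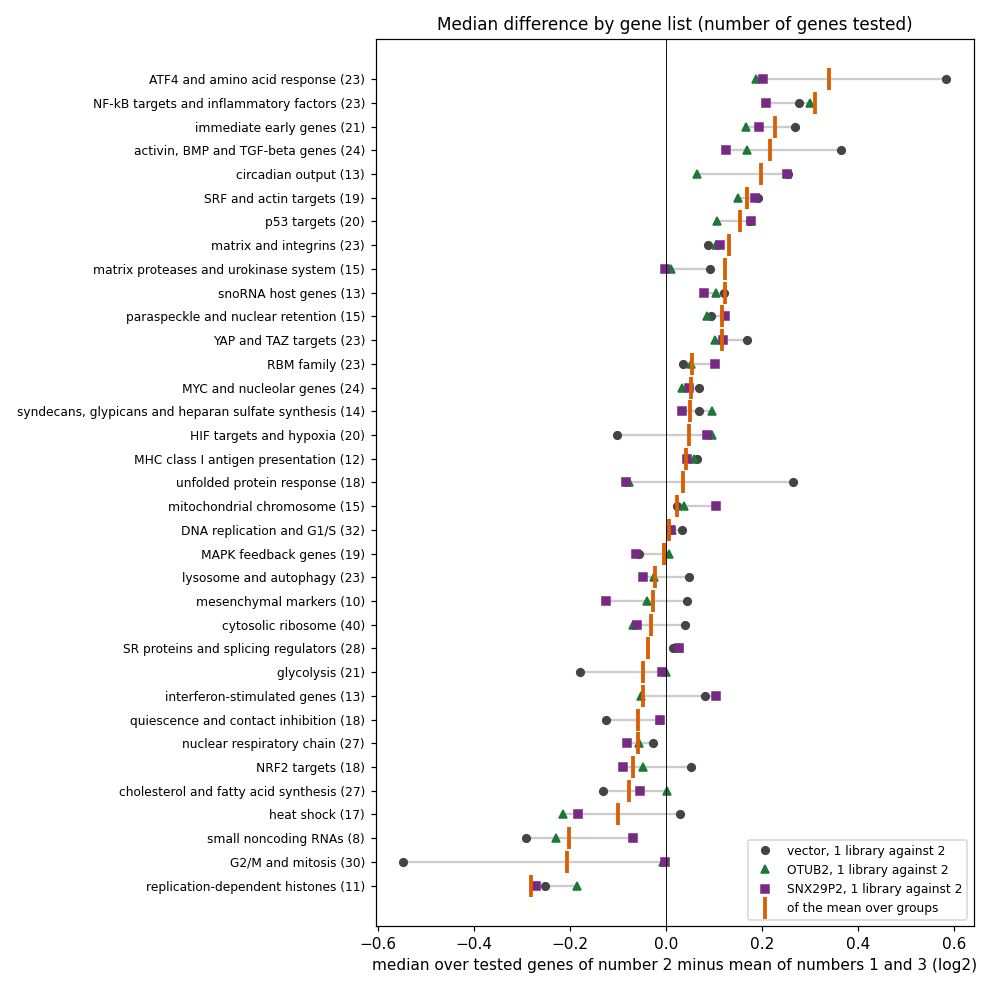
Median over the tested genes of each list (number in parentheses, the lists described with 8 or more) of the log2 difference between library number 2 and the mean of numbers 1 and 3, for vector (circles), OTUB2 (triangles) and SNX29P2 (squares). Orange bars are medians of each gene's mean over groups and can lie outside the 3 symbols; ATF4 and NF-kB lists lie at the top, at 0.34 and 0.31, and the G2/M median of -0.21 comes from the vector group alone.

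Among the cell cycle lists, that of G2/M and mitosis separated the vector library from the others numbered 2. The 30 G2/M and mitosis genes had medians of -0.55, -0.0070 and -0.0022, and 4 were lowest in number 2 in all groups. Without vector number 2 the median over genes was 0.0014. CENPF, a kinetochore protein, was at 12.6, 23.1 and 24.4 RPKM against 22.9 and 22.7, 24.5 and 26.1, and 25.2 and 28.4, and DLGAP5, a spindle protein, at 9.12, 16.5 and 15.8 against 16.6 and 18.2, 17.7 and 21.0, and 17.1 and 20.6. Number 2 with the vector was well below both its neighbours, and the other libraries numbered 2 were slightly below theirs. IQGAP3, a scaffold protein expressed in proliferating cells, was set apart as lower, with differences of -1.39, -0.26 and -0.35.

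DNA replication and G1/S genes had a median of 0.0057 over 32 genes. CCNE2, cyclin E2, was the only one set apart, at 14.2, 12.5 and 13.6 RPKM against 9.44 and 7.22, 8.72 and 8.87, and 9.84 and 9.87, or 0.58 ± 0.17. Replication-dependent histone genes had group medians of -0.25, -0.19 and -0.27, but of 11 tested, none was lowest or highest in all 3 groups, and without SNX29P2 number 2 the median went from -0.28 to -0.14. Relative to all libraries, the mean level of histone genes was highest in number 1 of each group, at 0.13, 0.47 and 0.35. Number 2 stood at -0.31, 0.011 and -0.24, and number 3 at -0.070, -0.062 and -0.28. MYC and nucleolar genes had a median of 0.051 and cytosolic ribosome genes one of -0.031. The ribosome genes did not share one direction, with group medians of 0.040, -0.068 and -0.060 in vector, OTUB2 and SNX29P2. Among quiescence and contact inhibition genes, with a median of -0.057, TXNIP, an inhibitor of glucose uptake, was higher at 23.9, 22.8 and 23.1 RPKM against 12.7 and 12.5, 19.1 and 14.2, and 17.7 and 14.6. CCNG2, a cyclin linked to cell cycle arrest, was lower at 0.312, 0.942 and 0.743 RPKM against 1.33 and 0.934, 1.27 and 1.19, and 1.21 and 1.17, and KLF9, a glucocorticoid-induced factor, at 0.371, 0.454 and 0.445 against 1.11 and 0.552, 0.592 and 0.532, and 0.548 and 0.696.

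Clock-controlled genes had a median of 0.20 over 13 genes, with 5 highest, 0 lowest and 3 set apart. The group medians were 0.25, 0.065 and 0.25, and the median was 0.075 without vector number 3, 0.099 without OTUB2 number 3 and 0.056 under the filter of 1 RPKM in 6 libraries. PER2, a core clock repressor, was at 3.72, 2.20 and 2.39 RPKM against 0.951 and 1.72, 1.74 and 1.75, and 1.71 and 1.68, with differences of 1.46, 0.31 and 0.47. TEF, a clock output factor, was at 1.61, 1.02 and 1.31 RPKM against 0.651 and 0.621, 0.790 and 0.786, and 0.842 and 0.773, and BHLHE40, a repressor in the clock, at 8.95, 5.52 and 5.60 against 7.54 and 4.21, 4.64 and 3.63, and 4.64 and 3.54. PER2 and TEF did not overlap, whereas vector number 1 was above BHLHE40 in number 2 of OTUB2 and SNX29P2.

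Hypoxia and metabolic genes gave smaller medians. HIF targets had group medians of -0.10, 0.097 and 0.085 in vector, OTUB2 and SNX29P2. Their median was 0.048 over 20 genes, and -0.048 to 0.12 over the alternatives, with 2 set apart. These were DDIT4, described above, and ANGPTL4, an inhibitor of lipoprotein lipase, at 2.89, 1.49 and 1.30 RPKM against 0.302 and 0.731, 0.570 and 0.908, and 0.905 and 0.632. Its difference was 2.37, 0.96 and 0.71 in the 3 groups. Glycolysis genes had a median of -0.047, with 5 of 21 lowest in number 2 throughout and ALDOC alone set apart as higher, at 0.52 ± 0.35. Their group medians were -0.18 in vector, 0.00011 in OTUB2 and -0.0072 in SNX29P2.

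Cholesterol and fatty acid synthesis genes had a median of -0.077, with 5 of 27 lowest (10.4% of all genes) and 0 highest (14.2%). The group medians were -0.13, 0.0029 and -0.053, and over the alternatives the median ran from -0.14 to 0.0051. In the mean level of these genes relative to all libraries, vector number 1 stood apart at 0.58, against 0.036 in vector number 2 and -0.085 in number 3. Nuclear genes of the respiratory chain had a median of -0.057, with 6 of 27 lowest and 0 highest, and genes of the mitochondrial chromosome one of 0.023.

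RNA processing genes held members set apart on both sides. CLK1, a kinase that phosphorylates SR proteins, was at 10.8, 11.6 and 12.6 RPKM against 8.21 and 6.57, 8.97 and 6.95, and 8.24 and 7.94, or 0.58 ± 0.045, and SRSF5, an SR splicing factor, at 21.3, 24.2 and 25.8 against 38.1 and 32.2, 35.2 and 32.7, and 37.5 and 35.2, or -0.56 ± 0.13. Neither overlapped, and they were the only set-apart members of 28, whose median was -0.038. The sign of that median was not kept over the alternatives, from -0.054 to 0.032. The group medians were 0.014, 0.027 and 0.027 in vector, OTUB2 and SNX29P2. Number 2 was highest in all 3 groups for 8 of the 28 (14.2% of all genes) and lowest for 2 (10.4%). Paraspeckle and nuclear retention genes had 6 of 15 highest, 3 lowest and a median of 0.12, with RBM14 alone set apart. NEAT1, the RNA that paraspeckles are built on, was at 2.34, 2.70 and 2.99 RPKM against 4.01 and 2.55, 3.48 and 2.22, and 3.13 and 2.97, and was not ordered. RBM14 was also the only one set apart of 23 RBM family genes, whose median was 0.054. THOC6, a subunit of the mRNA export complex THO, was lower at -0.53 ± 0.17.

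The other protein-coding genes at a mean of 5 RPKM or more with the widest differences were chosen after their values were seen. SLC16A9, of the monocarboxylate transporter family, was at 7.86, 6.43 and 7.10 RPKM against 4.77 and 4.62, 3.53 and 4.07, and 3.96 and 4.80, and CREB3L1, a membrane-bound factor that controls collagen genes, differed by 0.61 ± 0.077. On the lower side, 3 neighbouring genes of hair keratin-associated proteins led. KRTAP2-3 was at 101, 114 and 116 RPKM against 213 and 162, 225 and 172, and 241 and 173. KRTAP2-4 differed by -0.84 ± 0.11 and KRTAP2-2 by -0.79 ± 0.18. They are close copies of each other, so their reads cannot be assigned with certainty and they do not count as 3 observations.

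TP63, a p53 family factor of epithelial cells, was at 3.97, 5.18 and 5.42 RPKM against 7.46 and 6.30, 6.505 and 7.09, and 6.68 and 8.87, below the other 6 in each library numbered 2. SAMD9, an antiviral factor, differed by -0.56 ± 0.32 and UBALD2 by -0.62 ± 0.32. Of lower expressed genes, CRISPLD2, a secreted glucocorticoid-responsive protein, was at 2.69, 1.88 and 1.96 RPKM against 0.824 and 0.705, 0.876 and 0.814, and 0.737 and 0.596, HES4, a Notch target, at 4.81, 2.73 and 3.45 against 1.47 and 1.62, 1.73 and 1.14, and 1.62 and 0.796, and SCG5, a chaperone of prohormone convertase, at 2.80, 1.27 and 1.96 against 0.843 and 1.29, 0.869 and 0.673, and 0.646 and 0.897. CRISPLD2 and HES4 did not overlap, while SCG5 did.

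**Figure D3:**
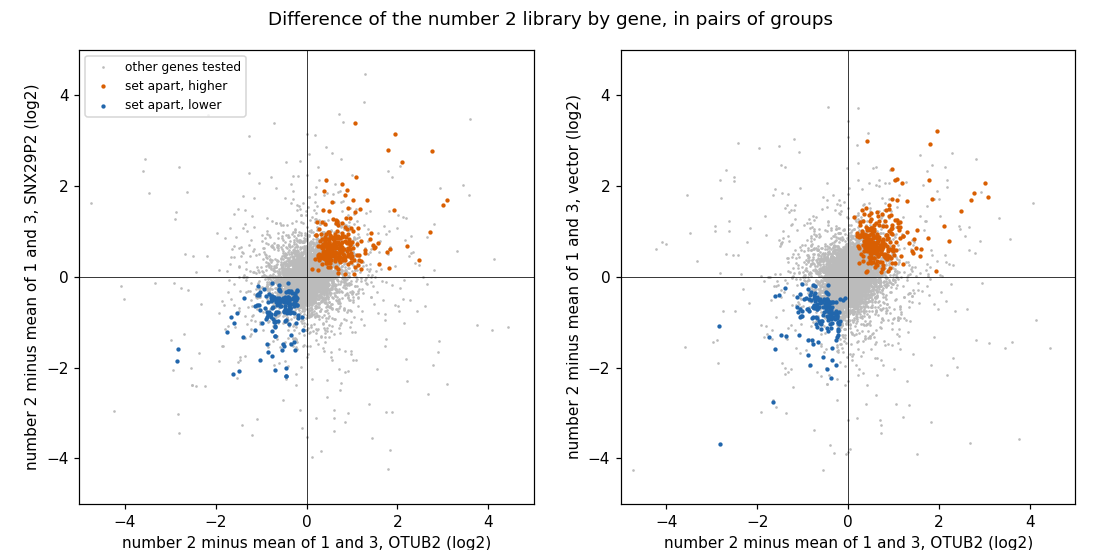
Log2 difference of library number 2 from the mean of numbers 1 and 3 for each of 16533 genes, in OTUB2 (x axes) against SNX29P2 (left) and vector (right). Orange points are the 259 genes set apart as higher and blue points the 153 lower; by the rule they lie in the corners where both differences have the same sign.

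Over all genes, the difference of number 2 in OTUB2 and in SNX29P2 had the same sign in 71.4% of genes, with a Pearson correlation of 0.26 and a Spearman correlation of 0.48. Between vector and OTUB2 these were 63.3%, 0.19 and 0.34, and between vector and SNX29P2 64.3%, 0.15 and 0.35. Such sharing was not particular to number 2. In deviations from the group mean, OTUB2 and SNX29P2 had a Pearson correlation of 0.27 in number 1 and 0.15 in number 3. With vector, number 1 gave 0.051 for OTUB2 and -0.018 for SNX29P2, and number 3 gave 0.14 and 0.10. These describe 16533 genes, which are not independent replicates, and they include the genes that the split was picked on. Of the genes set apart, 107 of the 259 higher and 67 of the 153 lower had a mean below 1 RPKM, and 40 and 29 were at 5 RPKM or more. Protein-coding genes, 11120 of those tested, gave 105 and 55.

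Short genes were set apart more often than long ones, relative to their number. Below 300 bases, 4.91% of 937 genes were higher and 2.88% lower, against 0.775% and 0.440% of 9543 genes of at least 3000 bases. Such loci rest on few reads: MIR548AR, the gene with the widest difference among those named, had 3.65, 2.17 and 2.20 RPKM in number 2 against 0.411 and 1.27, 2.07 and 0.439, and 0.383 and 0. RNU6-1263P, a U6 pseudogene, had 0.980, 1.75 and 3.54 RPKM against 0.663 and 0.228, 0.445 and 0.236, and 0.206 and 1.20, and HNRNPA1P33, a processed pseudogene, 2.27, 1.51 and 1.92 against 1.13 and 0.905, 1.13 and 0.357, and 0.272 and 0.416. The last 2 resemble expressed genes elsewhere, so their reads are uncertain. Of 271 miRNA loci, 18 were higher and 5 lower. MIR186 differed by 1.07 ± 0.44, MIRLET7D by 1.13 ± 0.68, MIR6772 by 1.17 ± 0.94, MIR5088 by -1.50 ± 0.90 and MIR6737 by -1.16 ± 0.48.

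Of 220 small nucleolar RNAs, which guide chemical marks on other RNAs and are mostly cut from introns of host genes, 10 were higher and 14 lower. SNORD45A was the farthest of the lower ones, at 9.89, 8.58 and 8.94 RPKM against 24.5 and 24.2, 31.4 and 18.8, and 34.3 and 41.9, from 742 reads in all 9 libraries. Its difference was -1.62 ± 0.40, while its host gene RABGGTB differed by -0.24 ± 0.033. The 14 lower ones had a median of -0.88 and their hosts one of -0.054, and the 10 higher ones 0.82 with hosts at 0.085. The small RNAs were picked for a difference of at least 0.5 in size and their hosts were not, so nothing is read from this gap. Some rest on few reads: SNORD62A, SNORA59A and SNORD94 had 51, 73 and 91 in all 9 libraries. SNORD12B differed by -0.92 ± 0.18 and SNORD12C by -0.86 ± 0.062, and both lie in the host gene ZFAS1. SNORD94, SNORD21, SNORD62A, SNORA59A and SCARNA13 differed by -1.22, -1.03, -0.90, -0.94 and -1.05, and SNORA29 by 1.25 ± 0.48. The share of all reads on small nucleolar RNAs was 0.0331 to 0.0337% in number 2 and 0.0314 to 0.0363% in the others.

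SNORA73B was at 6.75, 5.65 and 6.75 RPKM against 11.4 and 9.72, 10.9 and 8.59, and 8.87 and 10.6, and SNHG3, the noncoding gene that covers it, at 13.6, 15.7 and 15.6 against 23.1 and 19.8, 22.3 and 19.8, and 22.4 and 21.4. Both were lower without overlap, at -0.64 ± 0.12 and -0.52 ± 0.12. In the host median above, SNORA73B was instead counted with RCC1, the widest gene over it, at -0.14 ± 0.095. The 13 host genes tested had a median of 0.12, and the small noncoding RNA list, with TERC, the telomerase RNA, at 0.336, 0.457 and 0.231 RPKM against 0.346 and 0.760, 1.39 and 0.555, and 0.403 and 0.548, one of -0.20 over 8, or -0.056 without vector number 2 and -0.30 without SNX29P2 number 2. RPS26P6, a ribosomal pseudogene, differed by -0.91 ± 0.57.

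Base composition moved with the split in the overexpressing groups. Across 11114 protein-coding genes, the rank correlation of the difference with GC content was 0.051 in vector, -0.17 in OTUB2 and -0.24 in SNX29P2. From the lowest to the highest of 5 equal bins of GC, the median difference went from -0.028 to -0.0088 in vector, from 0.076 to -0.0094 in OTUB2 and from 0.079 to -0.048 in SNX29P2. The set-apart genes had median GC contents of 51.0% (higher) and 48.6% (lower), against 47.9% for all. The part of base composition in the differences was not tested.

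**Figure D4:**
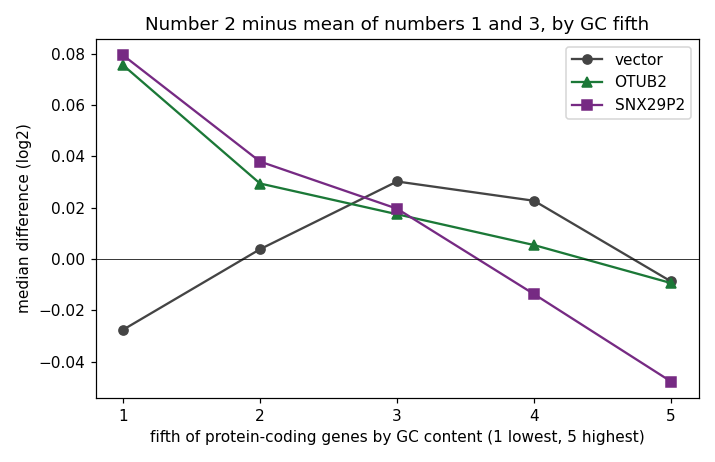
Median log2 difference of library number 2 from the mean of numbers 1 and 3 (y axis) in 5 bins of 11114 protein-coding genes ordered by GC content (x axis), for vector (circles), OTUB2 (triangles) and SNX29P2 (squares). OTUB2 and SNX29P2 fall from 0.076 and 0.079 in the lowest bin to -0.0094 and -0.048 in the highest, while vector stays between -0.028 and 0.030.

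Markers of other cell types were summed in RPKM over all markers with a value, whether or not they passed the filter. Epithelial markers summed to 247 to 281 in the libraries numbered 2 and 254 to 288 in the others, with 3 of 10 passing. Leukocyte markers summed to 31.2 to 32.4 in the libraries numbered 2 and 28.9 to 43.1 in the others, with 1 of 10, and endothelial markers to 18.8 to 23.6 in the libraries numbered 2 and 19.8 to 24.5 in the others, with 2 of 8. These ranges overlapped. Fibroblast markers summed to 67.8 to 89.0 in the libraries numbered 2 and 47.9 to 68.7 in the others, with 3 of 7. Their ranges overlapped too. COL1A1 led the sum and was the only one of the 3 with number 2 highest in all 3 groups. The group medians of the 3 were -0.085, -0.11 and 0.34 in vector, OTUB2 and SNX29P2. Ovarian and Müllerian markers summed to 13.6 to 15.2 in the libraries numbered 2 and 12.6 to 18.3 in the others, with 3 of 8. WT1, a factor of the ovarian surface lineage, was set apart as higher, at 1.37, 1.03 and 0.998 RPKM against 0.524 and 0.906, 0.751 and 0.767, and 0.583 and 0.933. In bulk RNA, fewer cells of a type and less RNA per cell cannot be told apart.

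The comparisons between groups asked what overexpression changed, and they are balanced over the numbers. They were fitted with limma, Benjamini-Hochberg adjusted over all 16533 genes, with number 2 as a term beside group. That term comes from the split picked after the data were seen, so the spread behind the adjusted p-values of this fit depends on it. With group alone, some of the calls below were lost and others were kept. The comparisons with vector share the vector libraries. OTUB2 against vector gave 4 calls at an adjusted p under 0.05 (0.0242% of genes), SNX29P2 against vector 13 (0.0786%) and OTUB2 against SNX29P2 4 (0.0242%). None of the genes set apart was called for OTUB2 against vector or OTUB2 against SNX29P2, and 2 of the higher ones were called for SNX29P2 against vector. Of all tested genes, 1563, 1832 and 597 had an unadjusted p under 0.05.

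The 2 genes were FSTL3 and IL11, both lower with SNX29P2 than with the vector in all 3 numbers. FSTL3 fell by 0.66 (log2, SE 0.071, limma adjusted p = 0.0299), and by 0.64 with OTUB2 (adjusted p = 0.0506). IL11 fell by 0.56 (SE 0.069, limma adjusted p = 0.0445), and by 0.46 with OTUB2 (adjusted p = 0.172). With group as the only term, limma gave adjusted p = 0.551 for FSTL3 and 0.770 for IL11. Leaving out single libraries ended the FSTL3 call in 9 of 9 cases and the IL11 call in 8 of 9. The same values chose these genes for an even difference over groups and set the spread of this test, so the calls are no independent support.

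Outside the set-apart genes, CA9, a hypoxia-induced carbonic anhydrase, was at 3.96, 6.75 and 2.29 RPKM in vector libraries 1, 2 and 3, at 0.198, 0.148 and 0.0900 with OTUB2 and at 0.104, 0.330 and 0.152 with SNX29P2. BGN, a matrix proteoglycan, was at 6.27, 7.33 and 5.13, at 2.42, 2.13 and 2.23 and at 1.73, 1.98 and 1.94. Both fell in both overexpressing groups: CA9 by 4.07 and 3.85 (limma adjusted p = 0.0109 and 0.00795) and BGN by 1.41 and 1.67 (0.0109 and 0.00294). Leaving out single libraries ended the CA9 call in 4 of 9 cases for each comparison and the BGN call for OTUB2 in 4 of 9, and the BGN call for SNX29P2 in 0 of 9. The losses came without vector number 1 or 2, without OTUB2 number 2 or 3 (for OTUB2) and without SNX29P2 number 1 or 2 (CA9 for SNX29P2). Neither gene was ordered by number. GAA, an acid glucosidase, PLTP, a phospholipid carrier, and the collagen gene COL6A2 fell with SNX29P2, by 0.75, 0.65 and 0.70 (limma adjusted p = 0.0299, 0.0347 and 0.0445). Leaving out single libraries ended these calls in 8, 8 and 9 of 9 cases, and with group alone limma gave adjusted p = 0.0317, 0.141 and 0.244. SNX29P1, named like SNX29P2 as a pseudogene of SNX29, and RP11-231C14.7, which overlaps SNX29P2, were also called and may hold reads of SNX29P2.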

How the data were processed

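The authors deposited 1 table of RPKM values for 32997 genes with gene lengths and exon positions, per the file headers; the build is GRCh38 (submitters' processing notes). Not given in the sources used here are the aligner, the counting program, the strand setting and the annotation. Below 1000 reads, 100% of values were whole multiples of 1 read within a tolerance of 0.05 reads, so read numbers were recovered: 38504854 to 48551215 reads in genes per library. Names of 25 genes had become dates and were left unnamed. GENCODE release 29 gave gene types for the 22740 names it held.

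A gene was kept if 3 or more libraries reached 0.5 RPKM, with values taken as log2(RPKM + 0.1), a scale that understates the change of low genes. Groups and numbers come from the labels. The term for number 2 and group were fitted with limma (version 3.58.1, R 4.3.3, trended variance, Benjamini-Hochberg adjustment, calls under 0.05), tested on simulated data, and used only for the group comparisons. Other software was matplotlib 3.10.9, numpy 2.4.6, pandas 2.3.3 and python 3.11.15. The alternatives were other pseudocounts, filters, scalings, size limits, a block for number, group alone, and each library left out.

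The split, its genes, the 41 gene lists (864 entries) and the tests were chosen with earlier results of these data known. Named genes were the 5 genes given with the split, OTUB2, SNX29P2, CA9 and BGN, the 12 highest and 12 lowest set-apart genes at a mean of 1 RPKM or more, up to 3 set-apart members of each list or else the 2 with the largest difference, and up to 5 called genes per direction and group comparison. Added after seeing values were the 12 highest and lowest protein-coding genes at 5 RPKM or more, and further list members. A few results are not reported here.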

Additional observations from a re-analysis of the deposited data

Results flagged for a closer look

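For 4 gene lists the library numbered 2 was above both others in one group and below both in another, by the mean log2 level of the list's genes. None of these differences between groups was tested. Heat shock genes lay 0.205 above the mean of numbers 1 and 3 in vector and -0.229 in SNX29P2, a gap of 0.4339. In mesenchymal markers the same groups gave 0.0813 and -0.132, a gap of 0.2135. In glycolysis genes OTUB2 gave 0.000166 and vector -0.160, a gap of 0.1606. In MAPK feedback genes OTUB2 gave 0.0581 and SNX29P2 -0.0480, a gap of 0.1061.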

How the results depend on the processing

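Against 259 higher and 153 lower genes, a pseudocount of 1 gave 89 and 39, no filter 490 and 262, a filter of 1 RPKM in 6 libraries 129 and 79, a minimum difference of 1 37 and 20, one of 0.25 1061 and 638, and all 3 libraries outside all 6 others 141 and 89. Leaving out single libraries gave 272 to 439 higher and 156 to 333 lower, with 404 and 260 without vector number 2, since fewer libraries must be ordered. Chosen after seeing the data, voom gave 300 and 164, and genes of at least 300 bases 213 and 126. For OTUB2 against vector, 4 calls became 8 with no filter, 30 with voom on recovered reads and 1 to 13 in leave-one-out fits. For SNX29P2 against vector, 13 became 8 with no filter, 6 with group only, 23 with voom and 4 to 13. For OTUB2 against SNX29P2, 4 became 1 with the stricter filter and 4 to 5. A replicate block over all 3 numbers gave 4, 9 and 4 calls. Deviations from the group mean correlated at -0.018 to 0.27 between same-numbered libraries of different groups, and at -0.23 to 0.050 between different numbers. The 0.27 was that of number 1 in OTUB2 and SNX29P2. Vector number 1 did not reach 0.1 with either number 1 and was nearer to SNX29P2 number 3 than to SNX29P2 number 1, so the numbers were not taken as pairs. IL11 was at adjusted p = 0.0647 and FSTL3 at 0.0499 in the limma fit with the block. List medians kept their sign in all alternatives for 25 of 41 lists, and differences for 55 of 58 named genes. Where no cause is named, the cause was not tested. The exceptions among genes were BGN, SNX29P1 and RP11-231C14.7.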

Other observations

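Several lists had medians near that of all genes. MAPK feedback genes had a median difference of -0.0043 over 19 genes, with 2 highest in number 2 in all 3 groups and 3 lowest. SPRY4, an inhibitor of this pathway, was at 23.2, 19.4 and 19.4 RPKM in number 2 and 15.7 and 16.2, 13.6 and 15.8, and 15.0 and 15.5 in numbers 1 and 3, without overlap, and DUSP1, a MAPK phosphatase, was not ordered. MHC class I antigen presentation had a median of 0.042 over 12 genes, with PSMB9, an immunoproteasome subunit, at 0.38 ± 0.18. Interferon-stimulated genes had one of -0.049 over 13, and STAT2, a factor of the interferon response, was the only one set apart, lower at 1.74, 2.07 and 1.88 RPKM against 3.44 and 2.75, 2.75 and 2.43, and 2.96 and 2.42. Lysosome and autophagy genes had a median of -0.024 over 23, and mesenchymal markers one of -0.027 over 10, with SNAI2 highest in number 2 throughout at 0.38 ± 0.11 and ZEB2 lowest.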
